A study of Mus musculus with 24 samples.

Results

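Whole lungs of Rag-1 null mice taken at day 10 after lipopolysaccharide (LPS), a cell wall component of Gram-negative bacteria that sets off acute inflammation, were compared with lungs of the same genotype taken at day 4. The groups were picked by their labels and comprised 3 arrays at day 10 and 3 at day 4, which is 6 of the 24 arrays of the series. The other arrays were those of Rag-1 null lung at day 1 and in the control condition, and of wild type lung in the same 4 conditions, with 3 arrays each. The animals of every group were male C57BL/6 mice of 6 to 8 weeks. Both groups compared carry the Rag-1 deletion in every cell, so neither has mature T or B cells and the model cannot show what lymphocytes do on their own. Neither the labels nor the files used here say how LPS was given and at what dose, what control animals received, or how many animals make up a sample. P-values thus rest on the spread among 3 samples a group, and part of that spread may be technical.

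LPS in the lung is sensed by macrophages and epithelial cells, which release cytokines and chemokines that draw in neutrophils and monocytes. Resolution follows when neutrophils die and are cleared by macrophages, cytokine transcription stops and the epithelium is repaired, with alveolar type 2 cells, the makers of surfactant, also serving as progenitors. Regulatory T cells take part in this phase in wild type mice and are absent from Rag-1 null mice, which keep natural killer (NK) cells and innate lymphoid cells.

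Of the gene lists examined, those of genes induced by interferons had the largest median change in these lungs, described below with their values. Interferon signals reach these genes through factors of the STAT and IRF families, and IRF-containing complexes bind the interferon-stimulated response element, searched here on both strands as GAAA, any 2 bases and GAAA again. Stretches upstream of the start of 5 such genes are shown with matches in capitals, from the RefSeq promoter table on build GRCm38.p6, each read 5′ to 3′ on the strand of its gene.
Cxcl10, chr5:92349013-92349132, minus strand: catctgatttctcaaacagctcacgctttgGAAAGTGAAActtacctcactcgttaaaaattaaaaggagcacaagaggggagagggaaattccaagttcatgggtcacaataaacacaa
Rsad2, chr12:26456483-26456602, minus strand: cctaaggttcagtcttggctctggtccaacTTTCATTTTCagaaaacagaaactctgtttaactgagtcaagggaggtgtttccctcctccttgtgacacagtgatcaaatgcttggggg
Isg15, chr4:156200819-156200938, minus strand: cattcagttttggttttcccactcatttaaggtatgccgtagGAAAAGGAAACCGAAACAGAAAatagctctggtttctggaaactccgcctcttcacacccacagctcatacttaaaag
Gbp5, chr3:142496739-142496858, plus strand: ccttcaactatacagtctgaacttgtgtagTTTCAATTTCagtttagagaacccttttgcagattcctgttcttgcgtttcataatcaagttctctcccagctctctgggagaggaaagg
Igtp, chr11:58199436-58199555, plus strand: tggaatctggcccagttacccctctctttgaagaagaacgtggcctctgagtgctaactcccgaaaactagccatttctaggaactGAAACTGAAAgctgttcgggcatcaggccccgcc
A match lay at -213 from the start in Cxcl10, -120 in Rsad2, -165 in Gbp5 and -34 in Igtp, counted to the first base of the match. Isg15 held 3 matches, at -78, -72 and -66, which overlap each other. Within 250 bases upstream of the start, 9 of the 16 tested interferon gamma response genes with an entry held a match (56.2%), as did 5 of the 12 type I interferon response genes with an entry (41.7%). The share over all 27025 gene symbols of that table was 3.46%. A match is a description of letters, not of a bound site, and the motifs were searched with the values known.

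Per array, 9517 to 12125 of 24046 probes lay above background, and precision is limited by having 3 arrays a group. Arrays of a group correlated across probes at 0.975 to 0.990 at day 10 and at 0.969 to 0.986 at day 4. The wild type day 1 arrays, which also enter the estimate of spread behind the p-values, correlated less well, at 0.858 to 0.969. The label of the genotype was checked on lymphocyte genes. Cd3e is a chain of the T cell receptor complex. It lay at a log2 level of 4.27 to 4.60 in the 6 Rag-1 null arrays of day 10 and day 4. In the 6 wild type arrays of the same days it lay at 5.55 to 6.56. Cd79b, of the B cell receptor complex, lay at 4.95 to 5.51 in these Rag-1 null arrays and at 5.83 to 6.58 in these wild type arrays. The lowest level of a probe above background was 4.50 to 4.81, so Cd3e was near background in Rag-1 null lung. The Rag1 probe was near background in both genotypes and checks nothing. It lay at 4.44 to 4.93 in these Rag-1 null arrays and at 4.40 to 4.76 in these wild type arrays. The surfactant gene Sftpc and the club cell gene Scgb1a1, which mark lung, were among the brightest probes in these arrays.

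Of 13544 probes tested, 1310 passed an adjusted p under 0.05 between day 10 and day 4 (9.67%), 646 of them higher at day 10 (4.77%) and 664 lower (4.90%). The values come from limma, fitted to all 24 arrays, with Benjamini-Hochberg adjustment over all probes. "Rose" and "fell" below mean higher and lower at day 10 than at day 4 with such a p. Counted as genes by the brightest probe, 549 of 9605 rose (5.72%) and 510 fell (5.31%), and the median change over all genes was 0.04 on the log2 scale. Falls were larger than rises: 321 probes fell by at least 2-fold and 131 rose by as much. Of the probes called, 1302 changed in the same direction on each of the 3 slides (99.4%). They were called on these same arrays, so this is no separate check of the calls. Set against the control lungs, 274 of the 510 genes that fell were still above every control array in every day 10 array, 200 overlapped the controls and 36 lay below them. Of the 549 genes that rose, 185 were still below every control array in every day 10 array, 269 overlapped the controls and 95 lay above them. Over all 9605 genes, 16.7% lay above every control array at day 10 and 17.2% below.

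Interferon-induced genes fell together. All 19 tested members of a list of 23 interferon gamma response genes fell, with a median change of -1.96, and 12 of 17 tested type I interferon response genes fell, with a median of -1.67. No member of either list rose. The call of Ciita, which also sits in the MHC class II list, was weak (change of -0.58, adjusted p = 0.0378). It was lost with median centring only (0.130), no detection filter (0.0592) and only the compared arrays (0.0796). Leaving out day 4 replicate 2 or 3, or any day 10 array, also lost it, with adjusted p of 0.0568 to 0.287. Set against controls, 14 of the 19 interferon gamma genes stayed above every control array at day 10 and 5 overlapped the controls. Of the type I genes 1 of 17 stayed above and 16 overlapped. The median level of the interferon gamma list was 6.83, 6.88 and 6.59 in the day 10 lungs, against 7.78, 8.49 and 9.11 in the day 4 lungs and 5.91, 5.79 and 5.76 in the controls. Day 4 replicate 1 was the lowest of its group, and the groups did not overlap. The list's median change was -1.33, -2.12 and -2.47 on the 3 slides.

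Cxcl10, a chemokine that draws cells bearing CXCR3, stood at a log2 level of 5.96, 5.53 and 5.24 in day 10 lungs, against 7.84, 9.58 and 9.90 in day 4 lungs. Every day 10 array lay below every day 4 array, and all 3 lay above the controls at 4.32 ± 0.09 (SD, n = 3). The fall was -3.53 ± 0.59 on the log2 scale (SE, adjusted p = 3.47e-04), or 11.5-fold. Cxcl9, a second ligand of CXCR3, stood at 8.97, 8.93 and 8.13 in day 10 lungs, against 10.83, 11.65 and 12.05 in day 4 lungs, a change of -2.83 ± 0.42 (adjusted p = 9.94e-05). Its day 10 level was far above the controls, which averaged 5.05 ± 0.40. Rsad2, the antiviral protein viperin, stood at 6.52, 5.89 and 6.34 in day 10 lungs, against 8.25, 9.62 and 9.99 in day 4 lungs, and fell by 3.04 ± 0.41 on the log2 scale (adjusted p = 4.86e-05).

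Gbp5, a guanylate-binding protein of cell-autonomous defence, stood at 5.64, 5.42 and 5.10 in day 10 lungs, against 7.36, 8.67 and 9.11 in day 4 lungs, a change of -2.99 ± 0.51 (adjusted p = 4.53e-04). Igtp, an immunity-related GTPase, stood at 7.87, 7.81 and 7.60, against 9.92, 10.58 and 10.77 in day 4 lungs, a change of -2.66 ± 0.37 (adjusted p = 5.66e-05). Both genes sit in the interferon gamma list, and in both the day 10 arrays lay closer to each other than the day 4 arrays did. Of the other GTPases and guanylate-binding proteins of the list, Irgm1, Tgtp1, Gbp7, Gbp2, Gbp3 and Irgm2 fell with changes of -2.51, -2.32, -2.07, -2.05, -2.01 and -1.60. The tryptophan-degrading enzyme Ido1 fell by 2.95, and Psmb10, a subunit of the immunoproteasome, fell by 1.34 (adjusted p = 6.38e-05). Among the type I genes that fell, the change was -3.00 for Isg15, a ubiquitin-like protein, -2.97 for Ifit2, -2.09 for the transcription factor Irf7, -1.92 for Oasl2 and -1.90 for Usp18, which removes Isg15 from proteins. Slfn1 and Calhm6, which sit in no list here, fell with changes of -2.88 and -3.29. In bulk lung, fewer cells of a type and less RNA per cell cannot be told apart, and this holds for all results here.

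**Figure D1:**
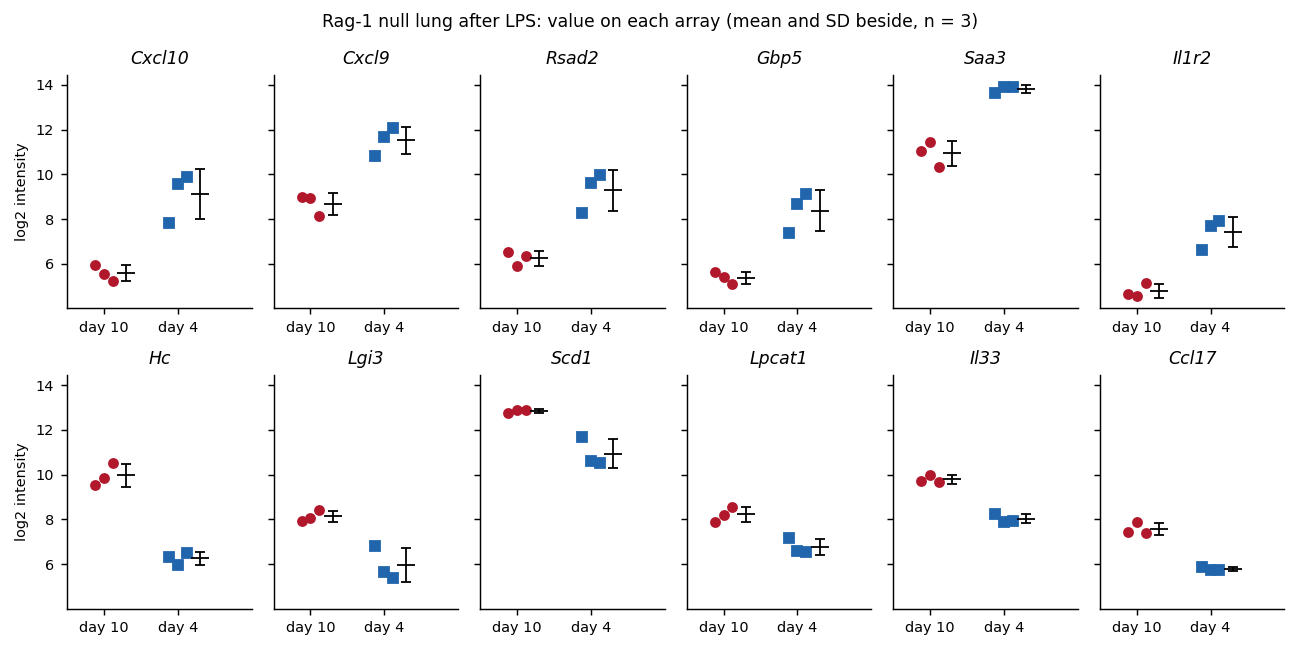
Normalized log2 signal (vertical axis) of 6 genes that fell and 6 that rose, with each array of Rag-1 null lung at day 10 (left) and day 4 (right) as a point and the mean ± SD beside it (n = 3). The genes were picked from those called on these same arrays, and the groups do not overlap in any panel. Hc stands at 9.53 to 10.52 at day 10 and at 5.95 to 6.51 at day 4.

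The plot of values by array sets these interferon-induced genes beside genes that rose. In each of its 12 panels the spread within a group is smaller than the gap between the group means, and for most falling genes the day 4 arrays spread more widely than the day 10 arrays. The 12 genes were picked from those called on these same arrays, so their separation is no separate check of the calls.

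Chemokines and cytokines divided into 17 that fell, 4 that rose and 14 that passed in neither direction, of 35 tested, with a median of -1.03. At day 10, 25 of the 35 were above every control array, 8 overlapped the controls and 2 lay below them. The lymphocyte and monocyte attractant Ccl5 stood at 7.18, 7.45 and 8.20 in day 10 lungs, against 9.83, 10.56 and 11.04 in day 4 lungs, a change of -2.87 ± 0.32 (adjusted p = 5.42e-06). At day 10 it overlapped the controls, which averaged 7.64 ± 0.24. Cxcl16, the ligand of CXCR6, fell by 1.03 ± 0.13 on the log2 scale (adjusted p = 2.02e-05) and was at 8.73, 8.72 and 8.68 in day 10 lungs, against 9.73, 9.63 and 9.85 in day 4 lungs. Cxcl14 fell by 1.60 (adjusted p = 6.11e-05). Unlike Ccl5 and Cxcl16, it lay below every control array at day 10, at 6.18 to 6.54 against 7.36 ± 0.02 in the controls.

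Of the classical inflammatory cytokines, chosen for naming after their values were seen except Il1b, Tnf stood at 4.64, 4.48 and 4.81 in day 10 lungs, against 5.82, 7.13 and 7.54 in day 4 lungs, a change of -2.19 ± 0.33 (adjusted p = 1.31e-04). Day 10 levels of Tnf were at the edge of background. Il1b stood at 7.71, 7.96 and 8.37, against 8.64, 9.89 and 11.09 in day 4 lungs, and fell by 1.86 ± 0.56 (adjusted p = 0.038). Il6 stood at 4.72, 4.94 and 4.50, against 4.75, 6.41 and 8.22 in day 4 lungs, with groups that overlapped and a change of -1.74 ± 0.47 (adjusted p = 0.0182). Without day 4 replicate 3 the adjusted p was 0.276 for Il1b and 0.141 for Il6, and without day 4 replicate 2 it was 0.106 and 0.0548. Without a day 10 array it was 0.126, 0.102 and 0.0555 for Il1b, leaving out replicates 1, 2 and 3 in turn, and for Il6 0.0518 without replicate 1 and 0.0663 without replicate 3. Without day 4 replicate 2, or without day 4 replicate 3, 11 of the chemokine and cytokine genes fell rather than 17. The anti-inflammatory cytokine genes Il10 and Tgfb1 changed by -0.16 and -0.10 (adjusted p = 0.565 and 0.877), and Il10 was near background.

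The 4 genes of this list that rose were Il33, Ccl17, Ccl6 and Cxcl12. Il33, an alarmin that in mouse lung is made mainly by alveolar type 2 cells, stood at 9.70, 10.00 and 9.65 in day 10 lungs, against 8.25, 7.88 and 7.93 in day 4 lungs, a rise of 1.77 ± 0.21 (adjusted p = 1.55e-05). Every day 10 array lay above every control array, which averaged 8.60 ± 0.38. Ccl17, which draws cells bearing CCR4 and is made by dendritic cells and macrophages, stood at 7.42, 7.89 and 7.40 in day 10 lungs, against 5.86, 5.73 and 5.76 in day 4 lungs and 6.07 ± 0.02 in controls, a rise of 1.78 ± 0.18 (adjusted p = 2.52e-06). It had been higher still at day 1, at 8.58, 8.32 and 8.67. Ccl6, a chemokine of macrophages, stood at 8.04, 8.59 and 8.97 in day 10 lungs, against 6.51, 6.42 and 6.70 in day 4 lungs and 6.80 ± 0.06 in controls, a rise of 1.99 ± 0.30 (adjusted p = 1.12e-04). In all 3 genes the day 4 mean lay below the control mean, and the day 10 arrays stood above both groups. Cxcl12, the ligand of CXCR4, rose by 1.05.

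Neutrophil genes fell in 13 of 20 tested cases, with a median of -1.59, and none rose. Il1r2, the decoy receptor for interleukin 1, stood at 4.66, 4.57 and 5.14 in day 10 lungs, against 6.64, 7.68 and 7.91 in day 4 lungs, a change of -2.62 ± 0.37 (adjusted p = 7.16e-05). Asprv1, an aspartic protease gene that neutrophils also express, had the largest fall of any named gene, 13.5-fold, with levels of 4.65, 4.81 and 5.15 in day 10 lungs, against 8.06, 8.74 and 9.07 in day 4 lungs (adjusted p = 2.65e-07). The stefin family gene Cstdc6 fell 13.4-fold. The receptors Cxcr2, Csf3r and Clec4e fell with changes of -1.97, -1.99 and -2.14, and the protease Mmp9 fell by 1.96. S100a8, a subunit of calprotectin, stood at 9.90, 9.98 and 10.13 in day 10 lungs, against 12.19, 12.74 and 12.82 in day 4 lungs, a change of -2.58 ± 0.70 (adjusted p = 0.0196). Leaving out 1 array gave an adjusted p for S100a8 of 0.0715 without day 4 replicate 2, 0.0867 without day 4 replicate 3, 0.0609 without day 10 replicate 1 and 0.0594 without day 10 replicate 2. At day 10, 8 of the 20 neutrophil genes were above every control array and 12 overlapped the controls.

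Acute phase and NF-kB target genes fell in 12 of 26 tested cases, with a median of -0.88, and 18 of the 26 were still above every control array at day 10. Saa3, a serum amyloid A made in the lung itself, stood at 11.02, 11.46 and 10.32 in day 10 lungs, against 13.62, 13.91 and 13.91 in day 4 lungs and 5.61 ± 0.38 in controls. Its change of -2.88 ± 0.39 (adjusted p = 5.07e-05) is limited by the scale, since 2 of the day 4 arrays are at the highest value that normalization can give, 13.91. The orosomucoid genes Orm1 and Orm2 had changes of -2.89 and -2.31, Tnfaip3, which restrains NF-kB, of -1.69 and the mitochondrial superoxide dismutase Sod2 of -1.24, and all 4 fell. The count for this list was 7 without day 4 replicate 2, without day 4 replicate 3 or without day 10 replicate 1. Of 20 genes of oxidative stress and metal binding, 4 fell and none rose. They were the metallothioneins Mt2 and Mt1, the cystine transporter Slc7a11 and the haem-degrading enzyme Hmox1, with changes of -2.64, -1.46, -1.51 and -1.26. Without day 4 replicate 3 the adjusted p of Hmox1 was 0.0782.

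**Figure D2:**
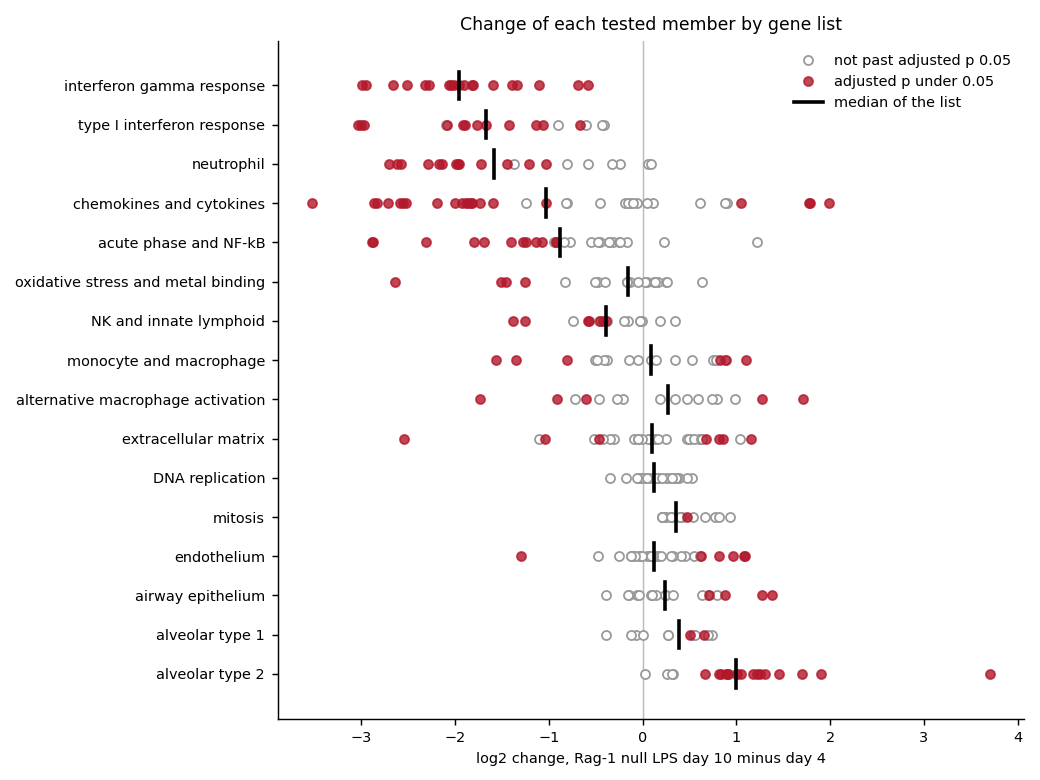
Log2 change from day 4 to day 10 in Rag-1 null lung (horizontal axis) of each tested member of 16 gene lists, with members past an adjusted p of 0.05 in red, the others as open grey circles, and the list median as a black bar. The interferon lists have medians of -1.96 and -1.67 and the alveolar type 2 list a median of 1.00.

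The plot of change by list shows the order of the lists. The interferon genes lie to the left of 0, with medians of -1.96 and -1.67, as do the neutrophil genes, with a median of -1.59, except Elane and Mpo at 0.09 and 0.06. The alveolar type 2 genes lie to the right, and so do the mitosis genes, at 0.21 to 0.93, while the replication, matrix and endothelial genes lie on both sides of 0.

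Alveolar type 2 genes rose in 16 of 21 tested cases, with a median of 1.00, and none fell. The list's median level was 9.53, 9.56 and 9.41 in the day 10 lungs, against 8.52, 8.00 and 8.07 in the day 4 lungs and 9.18, 9.64 and 9.20 in the controls. At day 10, 16 of the 21 genes overlapped the controls, 4 lay above and 1 below. Hc, the gene of complement component C5, rose the most of all named genes, 13.1-fold (adjusted p = 2.65e-07), with levels of 9.53, 9.83 and 10.52 in day 10 lungs, against 6.30, 5.95 and 6.51 in day 4 lungs. The controls were at 9.59 ± 0.05. Hc also sits in the complement list, of which it and Cd59a rose while Cfb and C3ar1 fell, of 16 tested. Without day 4 replicate 3 the adjusted p of Cd59a, Cfb and C3ar1 was 0.272, 0.110 and 0.0728. Cd59a and Cfb also missed the threshold without day 10 replicate 1 (0.0858 and 0.071) or replicate 2 (0.0848 and 0.0728), and Cd59a without day 10 replicate 3 (0.141) or day 4 replicate 2 (0.107).

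Enzymes of lipid synthesis were among the type 2 genes that rose. Scd1, the stearoyl-CoA desaturase, stood at 12.74, 12.88 and 12.88 in day 10 lungs, against 11.69, 10.61 and 10.50 in day 4 lungs and 12.70 ± 0.26 in controls, a rise of 1.90 ± 0.35 (adjusted p = 8.38e-04). Fasn, fatty acid synthase, stood at 10.62, 11.00 and 11.45, against 9.86, 9.10 and 9.01 in day 4 lungs, a rise of 1.70 ± 0.27 (adjusted p = 1.80e-04). Lpcat1, which makes the main surfactant phospholipid, stood at 7.89, 8.21 and 8.57, against 7.19, 6.59 and 6.55 in day 4 lungs, a rise of 1.45 ± 0.25 (adjusted p = 5.09e-04). In all 3 genes day 4 replicate 1 was the highest of its group. The surfactant lipid transporter Abca3 rose by 1.01 and the transcription factor Etv5 by 1.22 (adjusted p = 4.44e-04 and 7.66e-05). Lgi3, a secreted protein gene outside the list, rose by 2.17 ± 0.34 (adjusted p = 1.91e-04).

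The surfactant protein genes, 3 of which were chosen for naming after their values were seen, are limited by the top of the scale. Sftpc was at the highest value, 13.91, in all 3 day 10 arrays and all 3 controls, against 13.47, 13.17 and 12.57 in day 4 lungs (rise of 0.84 ± 0.21, adjusted p = 0.0112, and 0.115 without day 4 replicate 3). Sftpa1 rose by 0.91 (adjusted p = 0.00255) and Sftpd by 0.66 (adjusted p = 0.00631), although the p of Sftpd was 0.139 with arrays only centred on their medians and 0.0926 in the deposited value table. Sftpb changed by 1.00 ± 0.53 (adjusted p = 0.293). Cholesterol synthesis genes, which share regulators with lipid synthesis, rose in 2 of 14 tested cases, Hmgcs1 and Stard4, with changes of 0.79 and 0.91. Without day 4 replicate 3 the adjusted p of Hmgcs1 was 0.0673.

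**Figure D3:**
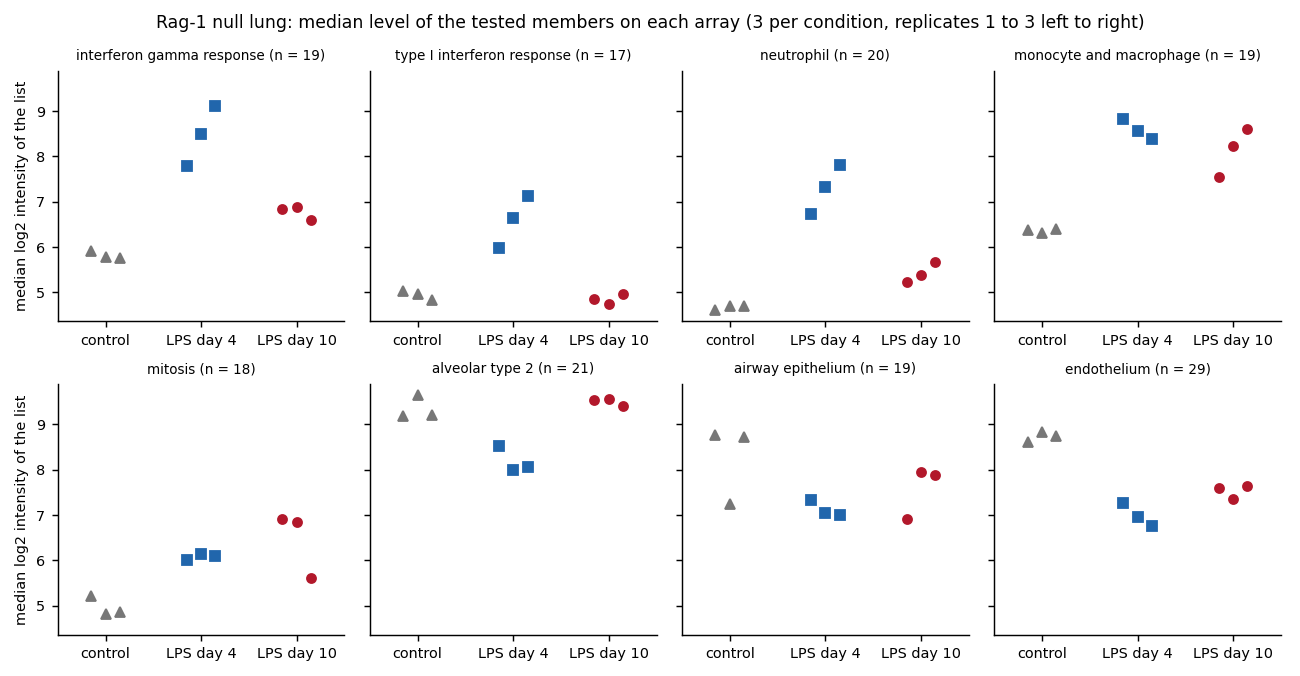
Median log2 level of 8 gene lists in each Rag-1 null array (points) in control, day 4 and day 10 lung, with replicates 1 to 3 from left to right. The alveolar type 2 list is back within the control range at day 10, at 9.41 to 9.56 against 9.18 to 9.64, while the endothelium list is at 7.35 to 7.64 against 8.62 to 8.84.

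The plot of list levels shows which lists returned to control levels and which did not. Of the airway genes 4 of 19 tested rose, of the alveolar type 1 genes 2 of 12 and of the endothelial genes 5 of 29, with 1 endothelial gene that fell. At day 10, 9 of the 19 airway genes, 6 of the 12 type 1 genes and 23 of the 29 endothelial genes were still below every control array. Cyp2f2, a cytochrome P450 of club cells, stood at 10.11, 10.58 and 10.06 in day 10 lungs, against 9.39, 8.88 and 8.35 in day 4 lungs and 11.66 ± 0.12 in controls, a rise of 1.38 ± 0.31 (adjusted p = 0.00554, and 0.0597 without day 4 replicate 3). The other airway genes that rose were Pon1, Tppp3 and Aldh1a7, by 1.27, 0.71 and 0.88. Nrp1, a co-receptor for VEGF, stood at 10.04, 10.06 and 9.84 in day 10 lungs, against 9.52, 8.74 and 8.41 in day 4 lungs and 10.78 ± 0.18 in controls, a rise of 1.09 ± 0.22 (adjusted p = 0.00214). Sox18, Emcn, Cavin2 and Thbd rose by 1.08, 0.96, 0.81 and 0.62. Selp, the adhesion molecule P-selectin that activated endothelium shows to leukocytes, fell by 1.30 ± 0.30 on the log2 scale (adjusted p = 0.0061, and 0.0597 without day 4 replicate 2).

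Of the alveolar type 1 genes, Ager and Emp2 rose by 0.65 and 0.50. Their adjusted p was 0.0721 and 0.122 without day 4 replicate 3, and both passed neither with arrays only centred on their medians (0.123 and 0.140) nor in the deposited value table (0.0796 and 0.0786). For Emp2 it was also above the threshold without day 4 replicate 2 (0.066), day 10 replicate 1 (0.0558) or day 10 replicate 3 (0.0568). Without day 4 replicate 3, Pon1 had an adjusted p of 0.0517, Tppp3 of 0.0515, Aldh1a7 of 0.0907, Cavin2 of 0.0985, Sox18 of 0.122 and Thbd of 0.111. Aldh1a7 and Thbd also missed it without day 4 replicate 2 (0.0653 and 0.0715) and without day 10 replicate 3 (0.0552 and 0.118), Aldh1a7 without day 10 replicate 2 (0.101), and Sox18 without day 10 replicate 2 or 3 (0.0502 and 0.0543). Pecam1 and Scgb1a1, the general markers of endothelium and club cells, changed by 0.15 and 0.10 (adjusted p = 0.874 and 0.790). Scgb1a1 was near the top of the scale, at 13.62 in every day 10 array, which limits any change it can show. Of 6 cardiac muscle genes, which come with pulmonary veins or heart tissue in a lung sample, none passed the test, but their median level varied between arrays, at 7.13, 8.10 and 6.40 in day 10 lungs, 7.02, 5.50 and 5.03 in day 4 lungs and 8.86, 7.12 and 8.92 in controls. Their part in the endothelial and airway results was not tested.

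Macrophage genes divided, with 3 of 19 tested that rose and 3 that fell, and 17 of the 19 stayed above every control array at day 10. Mmp12, the macrophage elastase, stood at 7.55, 8.24 and 7.38 in day 10 lungs, against 6.47, 6.75 and 6.65 in day 4 lungs and 5.09 ± 0.13 in controls, a rise of 1.10 ± 0.20 (adjusted p = 9.75e-04). The integrin Itgax rose by 0.83 (adjusted p = 0.0137, and 0.057, 0.0647 and 0.102 without day 4 replicate 1, day 4 replicate 2 and day 10 replicate 3). The lysozyme Lyz1, which rose by 0.89, also sits in the alveolar type 2 list and is counted there too. The 3 that fell are receptors for IgG or LPS. The high-affinity IgG receptor Fcgr1 stood at 5.08, 4.95 and 4.99 in day 10 lungs, against 6.13, 6.33 and 6.62 in day 4 lungs, a change of -1.35 ± 0.18 (adjusted p = 4.28e-05). Fcgr3 fell by 0.81, and the LPS co-receptor Cd14 fell by 1.57 (adjusted p = 0.00528, and 0.0576 without day 4 replicate 3). The list's median change was 0.09, which became -0.00 with cyclic loess and -0.01 in the deposited value table.

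Genes of alternative macrophage activation also divided, with 2 of 16 that rose and 3 that fell. The mannose receptor Mrc1 stood at 8.05, 8.16 and 7.95 in day 10 lungs, against 7.26, 6.96 and 6.12 in day 4 lungs and 7.41 ± 0.04 in controls, a rise of 1.27 ± 0.20 (adjusted p = 1.86e-04). The lectin Mgl2 stood at 6.67, 7.02 and 6.67, against 5.41, 5.08 and 4.74 in day 4 lungs, a rise of 1.71 ± 0.20 (adjusted p = 9.40e-06). Arg1, arginase, stood at 6.68, 8.12 and 4.75 in day 10 lungs, against 8.56, 8.08 and 8.13 in day 4 lungs and 4.30 ± 0.07 in controls, so the day 10 arrays spread widely and the groups overlapped. Its change of -1.74 ± 0.49 had an adjusted p of 0.0256, which was 0.180 without day 10 replicate 3, 0.0533 without day 10 replicate 1 and 0.0725, 0.0593 and 0.0723 without day 4 replicates 1, 2 and 3. It was 0.127 with only the arrays of the compared groups in the fit and 0.105 with array weights. Tgm2 and Stab1 fell with changes of -0.91 and -0.60, and Stab1 missed the threshold whenever 1 of the 6 arrays was left out, with adjusted p from 0.0561 to 0.113. Among 19 genes of apoptotic cell uptake and lipid mediators, 4 rose and 2 fell. Pparg, a lipid-sensing receptor of alveolar macrophages, stood at 5.72, 5.91 and 6.67 in day 10 lungs, against 4.95, 4.72 and 4.53 in day 4 lungs, a rise of 1.37 ± 0.21 (adjusted p = 1.42e-04). Its day 10 arrays overlapped the controls, and the uptake proteins Mfge8, Axl and Gas6 rose by 0.81, 0.70 and 0.73. Gas6 had an adjusted p of 0.0423, and of 0.329 without day 4 replicate 3. That of Mfge8 was 0.0674 without the same array, and that of Axl was 0.0779 without day 4 replicate 2 and 0.0937 without day 10 replicate 3.

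Of 31 extracellular matrix genes, Mmp2, Serpinh1, Timp2 and Loxl1 rose, and Timp1, Tgfbi and Timp3 fell. Timp1, an inhibitor of metalloproteinases, stood at 9.41, 8.92 and 7.45 in day 10 lungs, against 10.73, 11.28 and 11.42 in day 4 lungs and 6.64 ± 0.12 in controls, a change of -2.55 ± 0.43 (adjusted p = 3.97e-04). Timp2 rose by 0.81 and Timp3 fell by 0.47, with adjusted p of 0.0632 and 0.0927 without day 4 replicate 3, and Timp3 also missed the threshold without day 4 replicate 2 (0.102), day 10 replicate 2 (0.0698) or day 10 replicate 3 (0.0611). The gelatinase Mmp2 rose by 1.16 (adjusted p = 0.00914, and 0.065 and 0.0695 without day 4 replicates 2 and 3). The structural genes Col1a1 and Eln changed by 0.10 and 0.60 (adjusted p = 0.895 and 0.569). Of 15 genes of antigen presentation on MHC class II, 12 stayed above every control array at day 10, and Ciita, the regulator of the class, fell by 0.58 (adjusted p = 0.0378, and 0.287 without day 4 replicate 3). Of 12 circadian clock genes none rose or fell, with changes from -1.03 for Per1 to 0.70 for Dbp.

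NK and innate lymphoid genes, which these mice retain, fell in 7 of 17 tested cases, with a median of -0.39, and none rose. The chemokine Xcl1 stood at 8.07, 7.70 and 7.39 in day 10 lungs, against 8.41, 9.63 and 9.26 in day 4 lungs and 5.91 ± 0.49 in controls, a change of -1.38 ± 0.35 (adjusted p = 0.0135, and 0.0677 without day 10 replicate 3). The granule protein Prf1 and the death ligand Fasl fell with changes of -0.42 and -0.39 and lay near background. None of the 7 passed without day 4 replicate 2 or without day 4 replicate 3, and 1 passed without day 10 replicate 1 or without day 10 replicate 2. Of 10 T cell markers none rose or fell. Their summed signal was 218.9 to 225.9 at day 10 and 224.5 to 229.5 at day 4, and at each time 4 of the 10 were detected in at least 1 array. Of 10 B cell markers Cd37, which myeloid cells also express, fell by 0.98.

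Several of the largest rises belong to no list. Lrp2, the endocytic receptor megalin, stood at 8.40, 8.35 and 7.70 in day 10 lungs, against 6.38, 5.79 and 5.84 in day 4 lungs, a rise of 2.15 ± 0.22 (adjusted p = 2.19e-06). Sfrp2, a secreted modulator of Wnt signals, stood at 6.11, 5.91 and 6.12 in day 10 lungs, against 4.33, 4.38 and 4.24 in day 4 lungs, which were not well above background, so it was at least 2.68-fold higher. This bound sets the day 10 mean against, per array, the higher of the lowest signal above background and the probe's own. Chodl, the lectin chondrolectin, was at 6.92, 7.18 and 4.68 in day 10 lungs, against 4.63, 4.47 and 4.40 in day 4 lungs, at least 3.1-fold higher (adjusted p = 0.00212), with day 10 replicate 3 close to the day 4 arrays. With only the arrays of the compared groups in the fit its adjusted p was 0.0665. The matrix proteins Matn4 and Ltbp2, the transcription factor Sp5 and Tinag rose by 1.82, 1.71, 1.81 and 1.76. For Ltbp2 the adjusted p of 0.00868 became 0.0509 without day 4 replicate 2, 0.0808 without day 4 replicate 3 and 0.0596 without day 10 replicate 1.

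The same interval was measured in wild type lung, and the test of the difference between the changes asks where lungs without mature T and B cells moved differently. Of 13544 probes, 82 passed for the genotype difference (0.605%), 73 with a higher change in Rag-1 null lung (0.539%) and 9 with a lower one (0.0665%). As genes, 58 of 9605 were higher (0.604%) and 5 lower (0.0521%). No member of the interferon gamma, type I interferon or alveolar type 2 lists passed. Their median changes were -1.96, -1.67 and 1.00 in Rag-1 null lung, and -1.07, -0.74 and 0.70 in wild type lung. An adjusted p above the threshold does not show that they changed alike. The number that passed rested on single arrays: it was 25 without Rag-1 null day 10 replicate 2, 28 without replicate 1 and 201 without replicate 3.

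**Figure D4:**
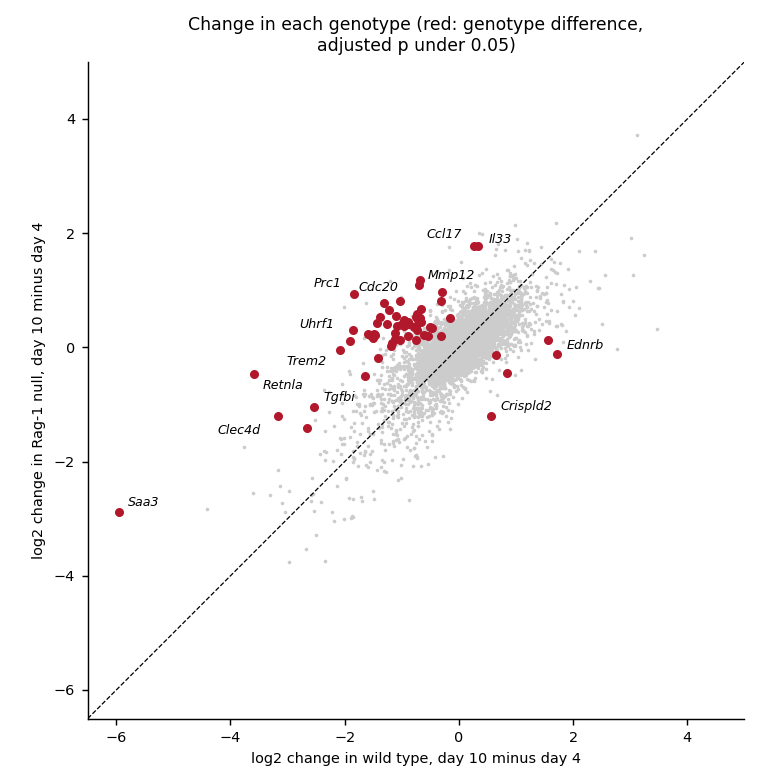
Log2 change from day 4 to day 10 of 9605 genes in Rag-1 null lung (vertical axis) against the same change in wild type lung (horizontal axis), 1 point per gene. The 63 genes that passed the test of the genotype difference are red, and 58 of them lie above the diagonal.

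The plot of both genotypes' changes shows where those genes lie: most had a negative change in wild type lung and a change nearer to 0 in Rag-1 null lung. Saa3 fell in both. It stood at 11.02, 11.46 and 10.32 in Rag-1 null day 10 lungs and at 13.62, 13.91 and 13.91 at day 4, against 8.53, 7.27 and 6.28 in wild type day 10 lungs and 13.62, 13.17 and 13.17 at day 4. Its change was -2.88 in Rag-1 null lung and -5.96 in wild type lung, a difference of 3.08 ± 0.55 (adjusted p = 0.0105). The day 4 values are close to the top of the scale in both genotypes, and the day 10 values do not overlap.

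Of 19 monocyte and macrophage genes 4 passed for the genotype difference, Trem2, Ctsk, Mmp12 and Adgre1, and of 16 alternative activation genes Retnla alone did. Ccl9, a chemokine of myeloid cells, stood at 7.99, 8.57 and 8.38 in Rag-1 null day 10 lungs and at 8.14, 8.32 and 8.16 at day 4, against 6.64, 6.72 and 6.56 in wild type day 10 lungs and 8.96, 8.38 and 8.29 at day 4. The difference was 2.02 ± 0.24 (adjusted p = 2.40e-04), with a change of 0.11 in Rag-1 null lung and of -1.91 in wild type lung. Trem2, a lipid receptor of macrophages, changed by -0.05 in Rag-1 null lung and by -2.08 in wild type lung (difference 2.03 ± 0.42, adjusted p = 0.0251). Mmp12 rose in Rag-1 null lung and stood in wild type lung at 5.46, 5.75 and 5.92 at day 10 and at 6.78, 6.43 and 6.03 at day 4, so its changes of 1.10 and -0.70 had opposite signs (difference 1.80 ± 0.29, adjusted p = 0.00504). Retnla, a secreted product of alternatively activated macrophages and epithelium, stood at 11.19, 11.90 and 11.11 in Rag-1 null day 10 lungs and at 11.88, 12.15 and 11.56 at day 4, against 9.06, 7.95 and 7.09 in wild type day 10 lungs and 12.05, 11.39 and 11.43 at day 4 (difference 3.12 ± 0.70, adjusted p = 0.0382). The Rag-1 null arrays of day 10 overlapped those of day 4 for Ccl9, Trem2 and Retnla and stood above them for Mmp12, and in all 4 genes they stood above the wild type arrays of day 10. For Retnla, replicates 1 and 3 of day 10 were below every day 4 array.

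Ccl17 and Il33, which rose in Rag-1 null lung, changed by 0.26 and 0.33 in wild type lung, with differences of 1.53 ± 0.26 (adjusted p = 0.00656) and 1.43 ± 0.30 (adjusted p = 0.0258). Tgfbi, a matrix protein made by macrophages among others, changed by -1.04 in Rag-1 null lung and by -2.53 in wild type lung (difference 1.49 ± 0.23, adjusted p = 0.00373). Clec4d, a lectin receptor of neutrophils and macrophages, changed by -1.21 and by -3.16 (difference 1.96 ± 0.41, adjusted p = 0.0254). Slc26a4, the anion exchanger pendrin, which was chosen after its values were seen, rose by 1.18 in Rag-1 null lung and changed by -0.69 in wild type lung, with a difference of 1.86 ± 0.33 (adjusted p = 0.0105). The calls for Il33, Trem2, Retnla and Clec4d were lost when any of several single arrays was left out, with adjusted p of up to 0.110, 0.104, 0.143 and 0.104, in each case without Rag-1 null day 10 replicate 2. Retnla was also lost without Rag-1 null day 1 replicate 2 or 3 (0.0506 and 0.0517), with a robust prior (0.0767) and with no intensity trend (0.0502). Trem2 was lost with only the compared arrays (0.0847) and Clec4d with cyclic loess (0.0526). In the 5 genes with the lower change, all chosen for their count, Ednrb, an endothelin receptor of lung capillaries, changed by -0.12 in Rag-1 null lung and by 1.72 in wild type lung (difference -1.85 ± 0.38, adjusted p = 0.0251). The others were Crispld2, Gata2 and the immunoglobulin light chain genes Igkv4-68 and another of its family, which were not detected in Rag-1 null lung. Without Rag-1 null day 10 replicate 2 none of the 5 passed, with adjusted p of 0.0553 to 0.123.

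**Figure D5:**
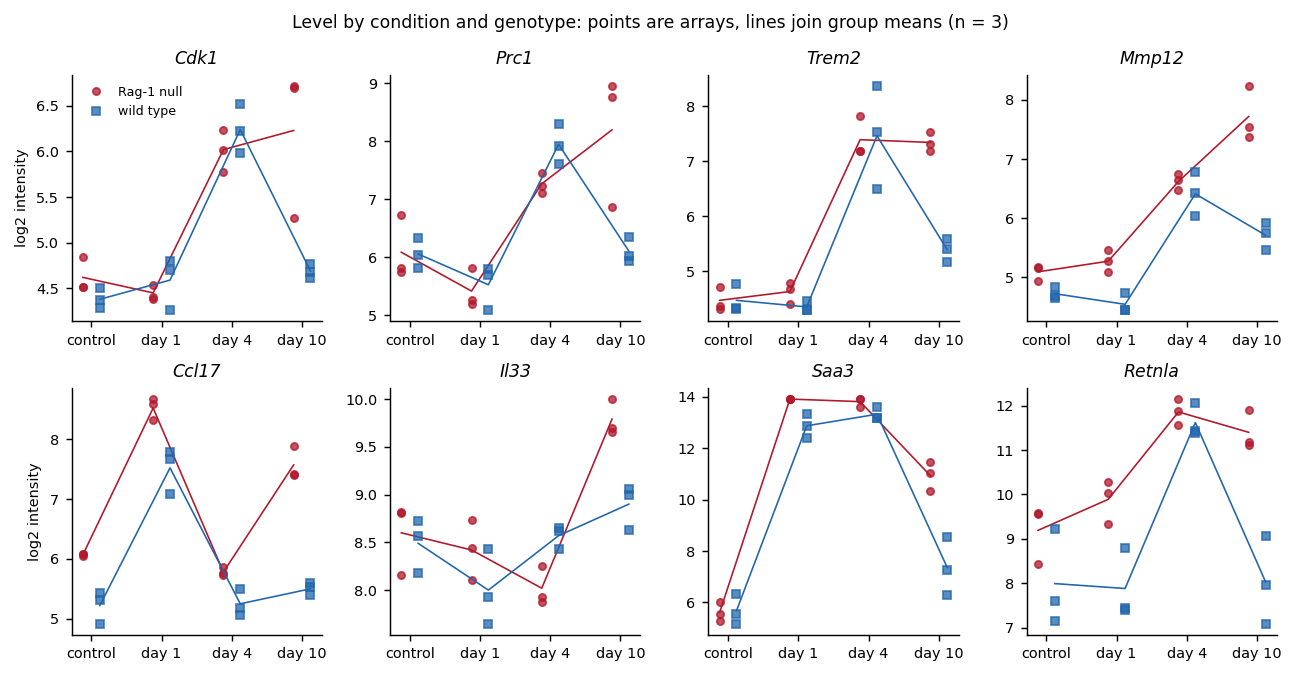
Normalized log2 signal (vertical axis) of 8 genes in control lung and at day 1, day 4 and day 10 after LPS, with Rag-1 null arrays in red on the left of each pair and wild type arrays in blue, 1 point per array and lines that join group means. At day 10 Ccl17 stands at 7.40 to 7.89 and Trem2 at 7.19 to 7.53 in Rag-1 null lung.

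Genes of cell division differed between the genotypes and did not change uniformly in Rag-1 null lung, as the plot of levels by condition shows for Cdk1 and Prc1. Of 18 tested mitosis genes, 1 rose and none fell between day 4 and day 10 in Rag-1 null lung, and 13 of the 18 passed for the genotype difference, all with the higher change in Rag-1 null lung. Of 25 DNA replication genes none rose or fell, and 12 passed for the genotype difference in the same direction. The median change of the mitosis list was 0.35 in Rag-1 null lung and -1.17 in wild type lung, and that of the replication list was 0.12 and -0.75. The median level of the mitosis list was 6.91, 6.84 and 5.61 in Rag-1 null day 10 lungs and 6.01, 6.15 and 6.10 at day 4, against 5.01, 5.10 and 4.99 in wild type day 10 lungs and 6.52, 6.31 and 6.08 at day 4. The control level in Rag-1 null lung was 5.21, 4.81 and 4.87.

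The day 10 arrays of Rag-1 null lung were therefore not alike: replicates 1 and 2 lay above the day 4 arrays and replicate 3 below them. Prc1, a protein of the dividing spindle, shows this with 8.96, 8.77 and 6.87 in Rag-1 null day 10 lungs and 7.11, 7.24 and 7.45 at day 4, against 6.36, 5.94 and 6.02 in wild type day 10 lungs and 8.30, 7.93 and 7.61 at day 4 (difference 2.77 ± 0.53, adjusted p = 0.0152). Cdk1, the kinase that drives entry into mitosis, shows the same with 6.72, 6.70 and 5.27 in Rag-1 null day 10 lungs and 5.78, 6.24 and 6.02 at day 4, against 4.68, 4.77 and 4.61 in wild type day 10 lungs and 6.52, 6.22 and 5.98 at day 4 (difference 1.77 ± 0.37, adjusted p = 0.0254). Even replicate 3 stood above all wild type day 10 arrays for both genes. Uhrf1, which keeps DNA methylation through replication, Cdc20 and the proliferation marker Mki67 differed by 2.16, 2.08 and 1.84. Without Rag-1 null day 10 replicate 2 the adjusted p was 0.0794 for Prc1, 0.110 for Cdk1 and 0.0612 for Cdc20, and without replicate 1 it was 0.0626, 0.0843 and 0.0551. Bub1b, a spindle checkpoint kinase, was the 1 gene that rose, by 0.47 ± 0.15 (adjusted p = 0.0492), and its call was lost when any of the 6 arrays except day 4 replicate 1 was left out, with adjusted p of 0.0639 to 0.196.

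The number of mitosis genes that passed for the genotype difference was 3 without Rag-1 null day 10 replicate 1 or without replicate 2, and that of replication genes was 3 in the same cases, against 13 and 12 with all arrays. With only the 12 arrays of the compared groups in the fit, 3 and 1 passed. In the order of the list's slides, the median mitosis change was 0.89, 0.76 and -0.48.

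Promoters of genes of this list often carry a CCAAT box and a cell cycle homology region, the element through which the DREAM complex represses these genes in resting cells, so both were searched, as CCAAT and TTTGAA on either strand. The last bases before the start of 3 genes of the list are shown with matches in capitals, from the same RefSeq table and build.
Cdk1, chr10:69352913-69353032, minus strand: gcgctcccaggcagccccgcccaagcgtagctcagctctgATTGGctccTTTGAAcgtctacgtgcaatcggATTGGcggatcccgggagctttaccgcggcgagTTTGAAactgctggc
Cdc20, chr4:118437344-118437463, minus strand: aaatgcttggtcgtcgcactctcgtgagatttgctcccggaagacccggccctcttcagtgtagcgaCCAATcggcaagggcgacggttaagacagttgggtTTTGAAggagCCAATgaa
Top2a, chr11:99024190-99024309, minus strand: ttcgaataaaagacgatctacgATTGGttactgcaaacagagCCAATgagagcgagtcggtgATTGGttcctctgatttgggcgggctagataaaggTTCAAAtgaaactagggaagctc
Matches begin at -80, -71, -48 and -15 in Cdk1, at -53, -18 and -8 in Cdc20 and at -98, -78, -58 and -23 in Top2a. Of 16 mitosis genes with an entry, 13 held CCAAT within 250 bases upstream (81.2%) and 6 held TTTGAA (37.5%), against 37.5% and 18.3% of all gene symbols. No mitosis gene had matches of both that share bases. In all 7 motifs were searched. The gamma-activated site, as TTC, any 3 bases and GAA, was held by 8 of 16 interferon gamma response genes, against 8.13% of all gene symbols. The NF-kB motif, as GGG, any 5 bases and CC, was held by 13 of 26 chemokine and cytokine genes, against 48.7%. A variant of the cell cycle homology region, TTTAAA, was held by 3 of 16 mitosis genes (18.8%), against 13.7%, and the E2F motif, TTTCCC followed by GC, by 0 of 16 mitosis genes and 2 of 22 replication genes, against 1.03%. Cdk1 and Top2a were chosen for naming after their values were seen.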

How the data were processed

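RNA of whole lung was extracted with TRIzol and purified with DNase I treatment, and biotin-labelled cRNA was hybridised to Illumina beadchips, per the labels' protocols. Per the file headers, the deposited scanner table gives each of 24046 probes on 24 arrays a mean bead brightness, a linear intensity before any normalization, with a detection score, a fraction of negative controls that the probe exceeds. The authors' deposited value table holds 13029 of the probes in log2 units. Each of its columns was found equal to the log2 scanner intensity of 1 array less the array's mean, with medians of -0.546 to -0.371, and the rule behind its choice of probes is unknown. Samples were assigned to arrays through this equality, because the titles above the scanner columns pointed to a different sample for 22 arrays of 24. The largest difference to the assigned array was 0.00054, while each other array had a probe that differed by at least 1.42. The assignment thus uses values and not titles. Lymphocyte genes served as a check of the genotype, but they cannot check the day of an array.

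Background was modelled from the detection scores (nec, offset 16), followed by log2 and then quantile normalization (limma 3.58.1, R 4.3.3). The method caps changes of the brightest probes. A probe was tested when its detection p was under 0.05 on 3 or more arrays, which left 13544. The platform annotation named 11658 of them, for 9605 genes, and 1886 stayed unnamed, and 1 probe of ribosomal RNA had its symbol removed. The brightest probe stands for a gene, and 1 of 68 genes with several called probes had probes of opposite direction. The day 10 against day 4 contrast in Rag-1 null lung, and its difference from the wild type one, came from 1 linear model with 8 group means on 24 arrays (moderated by eBayes with trend, two-sided, adjusted by Benjamini-Hochberg across probes, threshold 0.05). The linear model was tested on simulated data with known changes, made by adding independent noise to levels already normalized. That test did not cover background correction, normalization or arrays of unequal quality.

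By rule, the text names the 15 called genes that rose the most and the 15 that fell the most (leaving out clone and predicted names), no more than 5 called genes from each of 21 gene lists, taken by adjusted p, the members of lists with 5 or fewer calls, the 8 largest genotype differences and a set of anchor genes. Others are said to be chosen after their values were seen, or are given as list members. The comparison, members, lists, rule and motifs were chosen with earlier results of these data known. Each group occupied 1 fixed position on each of the 3 slides, which means that group and position cannot be told apart, and slides correspond to replicate numbers. Alternatives were background correction, normalization, value table, detection filter, arrays in the fit, weights, prior, 1 probe per gene, a slide block, fixed or random (with statmod 1.5.0), a 2-fold minimum and leaving out each array.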

Additional observations from a re-analysis of the deposited data

Results flagged for a closer look

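The change from day 4 to day 10 differed between Rag-1 null and wild type lung, by the test of the difference itself (limma, Benjamini-Hochberg adjusted p under 0.05), at 82 probes. The genes named in the report that passed are given here with the Rag-1 null change minus the wild type change on the log2 scale.

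Apart from cell division genes, those with the higher change in Rag-1 null lung were Retnla (3.12), Saa3 (3.08), Trem2 (2.03), Ccl9 (2.02), Clec4d (1.96), Ctsk (1.91), Slc26a4 (1.86), Mmp12 (1.80), Ccl17 (1.53), Tgfbi (1.49), Il33 (1.43) and Adgre1 (1.15). Ctsk, a lysosomal protease, stood at 9.38, 9.71 and 9.95 in Rag-1 null day 10 lungs and at 9.43, 9.20 and 8.81 at day 4, and changed by 0.53 in Rag-1 null lung against -1.38 in wild type lung. The macrophage marker Adgre1 changed by -0.51 in Rag-1 null lung and by -1.65 in wild type lung, with an adjusted p of 0.0455 for the difference. It missed the threshold with cyclic loess (0.0675), no detection filter (0.0679), only the compared arrays (0.0637), no intensity trend (0.0502) and the fixed slide block (0.0531), and without most single arrays, with an adjusted p of up to 0.156, reached without Rag-1 null day 4 replicate 2.

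Cell division genes were Prc1 (2.77), Uhrf1 (2.16), Cdc20 (2.08), Nusap1 (1.88), Mki67 (1.84), Cdk1 (1.77), Top2a (1.72), Mcm5 (1.67) and Bub1b (1.43). In 8 of these, Bub1b being the exception, Rag-1 null day 10 replicate 3 lay below the other day 10 arrays and within or below the range of the day 4 arrays.

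Genes with the lower change in Rag-1 null lung were Ednrb (-1.85), Crispld2 (-1.77), Igkv4-68 (-1.44), Gata2 (-1.29) and another Igkv4 gene (-0.78). Gata2, a transcription factor, changed by -0.45 in Rag-1 null lung and by 0.84 in wild type lung. Crispld2, a secreted protein, fell by 1.20 in Rag-1 null lung, where it stood at 4.95, 5.04 and 5.51 at day 10 and at 6.29, 6.53 and 6.28 at day 4, and changed by 0.57 in wild type lung. The immunoglobulin genes, in that order, changed by 1.56 and 0.65 in wild type lung. The genotype call of Crispld2 was lost with no background correction (adjusted p = 0.0596), median centring only (0.117), the deposited value table (0.0527) and only the compared arrays (0.0798). That of Gata2 was lost with median centring only (0.175), and that of Igkv4-68 with no background correction (0.0804).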

How the results depend on the processing

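The number of arrays, 3 in a group, limits all results, and values at the top of the scale or near background have no exact fold. Against 1310 probes called between day 10 and day 4, 2316 were called with only the Rag-1 null arrays in the fit, 3227 with array weights and 452 with a minimum of 2-fold. Leaving out each array in turn gave 689 to 2100, with 689 without Rag-1 null day 4 replicate 3, 821 without day 4 replicate 2 and 2100 without wild type day 1 replicate 1. The genotype difference, 82 probes, became 222 with arrays only centred on their medians, 38 with only the compared arrays and 832 with array weights, and 25 to 201 leaving out each array. It was 169 without wild type day 1 replicate 1, 37 without wild type day 4 replicate 2, 40 and 30 without wild type day 10 replicates 1 and 2, 48 without replicate 3, and 38 and 51 without Rag-1 null day 4 replicates 2 and 3. The cause was not tested. Higher calls were 49.3% of the total, 60.7% with median centring and 43.5% with cyclic loess. The replicate block, which is the slide, gave 1326 and 95 calls as a fixed and 1334 and 91 as a random term. Deviations of same-numbered samples, which share a slide, correlated at -0.022, 0.039 and 0.121. Those of differently numbered samples correlated at -0.149 to 0.158, so same-numbered samples were not seen to be closer. The fixed block lost 3 of 108 named calls between day 10 and day 4 (Bub1b, Gas6 and Cd59a) and the genotype difference of Adgre1. Of 5160 values of named genes under the alternatives, 0 reversed and 200 lost the call, 154 of them on leaving out an array, and 66 of the 108 called genes kept it under every alternative. Of 26 named genotype differences, 11 kept the call under every alternative and 11 lost it with only the compared arrays.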
